A study of Mus musculus with 67 samples.

Results

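Liver mRNA of mice without the clock repressor genes Cry1 and Cry2 was compared with that of wild-type mice while both ate a high-fat diet on a time-restricted schedule. The comparison held 19 of the 67 libraries of the series, chosen by their genotype and feeding labels. There were 8 libraries labelled Cry1Cry2 double KO (here CryDKO), 1 every 3 h from ZT3 to ZT24, where ZT is zeitgeber time, the hours since lights on. There were 11 wild-type (WT) libraries, every 4 h from ZT4 to ZT24. WT had replicate numbers 1 and 2 at each time except ZT12, which had only number 2, and every CryDKO library carried number 1. All were C57BL/6 mice, 24 weeks old, after 12 weeks of the diet (feeding group FT). The length and hours of the feeding window are not known from the sources used here. The labels name no promoter or tissue for the Cry deletion and do not say whether each library was a separate animal, so the spread behind each p-value is that of the libraries and may be technical. A further 20 ad libitum libraries of both genotypes (feeding group FA, 8 CryDKO and 12 WT, same diet and age) were used only to test whether the genotype difference depended on feeding.

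The clock of a liver cell is a loop of transcription. The activators CLOCK and BMAL1 (gene Arntl) bind E-box sequences and switch on the Per and Cry genes, whose protein products then repress CLOCK and BMAL1. The same activators drive Nr1d1 and Nr1d2, which encode the REV-ERB repressors of Arntl, and the transcription factors Dbp and Tef, which pass the rhythm to metabolic genes. In liver, meal time also sets the phase of many genes. CRY proteins are further known to restrain signalling by the glucocorticoid and glucagon pathways.

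The E-box searched for was CACGTG, which reads the same on both strands. In the RefSeq promoter table (build GRCm38.p6), 18 of the 22 genes of the core clock list had an entry, and 5 of these 18 (27.78%) had an E-box in the 250 bases before a start. Of all 32851 promoter entries of that length, 6.02% held one, and of the 27 entries of core clock genes 22.22% did. Counted by gene, it was 6.86% of all 27025 genes with an entry and 10.22% of the tested ones. The share was 10.5% for genes higher in CryDKO and 8.55% for genes lower. The genes with an E-box were Ciart, Per1, Tef, Cry1 and Bhlhe41. Ciart held 3, at 116, 58 and 44 bases before the start, and the E-box lay at 166 bases before the first start of Per1, 127 before the first start of Tef and 60 before that of Cry1. A match of letters is a description and not a bound site. Dbp, Nr1d1, Per3 and Arntl, which also have results below, had entries without an E-box. The promoters shown are those of Ciart (chr3:95882229-95882478, minus strand), Per1 (chr11:69098699-69098948, plus strand), Tef (chr15:81802423-81802672, plus strand) and Cry1 (chr10:85185055-85185304, minus strand). They were picked for their E-box among the clock genes described below. Capitals mark the E-box.
Ciart: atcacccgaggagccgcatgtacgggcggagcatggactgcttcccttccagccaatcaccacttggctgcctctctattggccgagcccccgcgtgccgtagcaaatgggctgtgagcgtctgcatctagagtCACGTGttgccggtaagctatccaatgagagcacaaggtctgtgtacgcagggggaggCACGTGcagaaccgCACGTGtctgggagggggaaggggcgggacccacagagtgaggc
Per1: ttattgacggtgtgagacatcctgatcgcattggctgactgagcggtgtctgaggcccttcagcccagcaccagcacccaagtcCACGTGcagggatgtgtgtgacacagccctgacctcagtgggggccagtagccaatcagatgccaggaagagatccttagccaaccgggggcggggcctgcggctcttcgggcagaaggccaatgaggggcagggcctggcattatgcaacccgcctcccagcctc
Tef: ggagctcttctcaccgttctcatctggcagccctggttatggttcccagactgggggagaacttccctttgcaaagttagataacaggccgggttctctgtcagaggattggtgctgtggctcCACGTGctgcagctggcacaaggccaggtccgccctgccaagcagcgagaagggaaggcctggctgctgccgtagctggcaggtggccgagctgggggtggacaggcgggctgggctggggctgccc
Cry1: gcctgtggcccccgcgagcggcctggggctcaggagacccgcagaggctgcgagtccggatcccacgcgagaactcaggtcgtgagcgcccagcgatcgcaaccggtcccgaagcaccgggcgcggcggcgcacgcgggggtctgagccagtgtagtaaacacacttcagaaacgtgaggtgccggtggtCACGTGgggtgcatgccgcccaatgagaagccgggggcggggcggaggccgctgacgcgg

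Values are FPKM (fragments per length of exon and per library size) as the authors deposited them. Differences are CryDKO minus WT in the 24-h level, on the log2(FPKM + 1) scale with the standard error, from 1 limma fit of the 19 libraries in which each group had its own level, cosine and sine of ZT. This scale understates changes of low genes. Adjusted p-values are limma's with Benjamini-Hochberg adjustment over the 9857 genes whose mean reached 1 FPKM, and genes passed at under 0.05. Recovered depth was 9.14 to 29.22 M reads in CryDKO and 11.71 to 22.85 M in WT. Hepatocyte markers were high in every library (summed over the list, 63010 to 106400 FPKM in CryDKO, against 61330 to 97280 in WT). Xist was at most 0.0123 FPKM, and the Y-linked Eif2s3y was present in all 19 libraries, at 10.4 FPKM or more. The slope of expression on GC content differed with the groups. It was 0.23 to 0.43 log2 per 10 points of GC in CryDKO, -0.21 to 0.40 in WT number 1 and -0.91 to -0.34 in WT number 2. Level differences are therefore also given after correction for GC content and exon length, or with WT number 1 alone, where that ended a call or moved a value by over 1.5 times. The part of GC content in the results was not tested otherwise.

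Of all genes tested, 4928 (50%) passed, of which 2713 (27.5%) rose and 2215 (22.5%) fell in CryDKO. With a log2 difference of at least 1, 632 (6.41%) rose and 263 (2.67%) fell. On corrected values 19.2% of 9482 genes rose and 20.7% fell, and with WT number 1 alone 14.7% and 13.5%. In all, 1232 genes rose and 1236 fell both before and after correction, while 140 (1.48%) passed in opposite directions. The counts of members below are to be read against these shares. With genes of at least 5 FPKM, 44.8% of the calls were rises, and with every library scaled to the same sum of FPKM 63.2%, against 55.1% here.

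The deleted genes did not serve as a check of the labels. Cry1 (chr10:85131700-85185064) was at 7.31 to 14.3 FPKM in the libraries labelled CryDKO, with a median of 10.8, and at 1.67 to 23.0 FPKM in WT, with a median of 10.6. Cry2 was at 1.94 to 2.85 FPKM and at 1.23 to 4.35 FPKM. Each value counts the whole gene, and the labels do not say which exons the knockouts lack. Cry1 was 0.41 ± 0.10 higher in CryDKO (adjusted p = 0.00341). Cry2 differed by -0.13 ± 0.15 (adjusted p = 0.495), and after correction by -0.63 (adjusted p = 0.000562).

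Most genes of the core clock list were higher in CryDKO. Of 18 measured core clock genes, 12 rose and 1 fell, with a median difference of 0.85. The 12 included the deleted gene Cry1. After correction 12 rose and 2 fell (median 0.74), and with WT number 1 alone 12 rose and 1 fell (median 0.89). Ciart, which encodes a further repressor of CLOCK and BMAL1, read 8.69, 10.9, 9.91, 11.9, 10.6, 10.8, 9.52 and 10.7 FPKM from ZT3 to ZT24. In WT it ran from 0.0641 to 7.87 FPKM with a median of 0.344, and it was highest at ZT8. Every CryDKO library was above every WT library. The difference was 2.34 ± 0.20 (adjusted p = 2.15e-07).

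The period genes Per1, Per2 and Per3 encode the partners of CRY in the repressor complex, and all 3 rose. Per1 (chr11:69095217-69109960) ranged from 7.31 to 12.8 FPKM in CryDKO and from 0.73 to 2.57 in WT, with medians of 10.4 and 1.80, so that the groups did not overlap. The difference of 2.01 ± 0.16 (adjusted p = 1.03e-07) was 1.01 after correction (adjusted p = 7.33e-06). Per2 had medians of 9.90 and 4.07 FPKM and was 1.20 ± 0.19 higher (adjusted p = 0.000138), or 0.72 higher after correction (adjusted p = 0.00945). Per3 had medians of 3.29 and 0.466 FPKM and was 1.26 ± 0.15 higher (adjusted p = 1.02e-05). In 6 of 8 CryDKO libraries Per2 exceeded the mean of the WT hour in which it was highest, ZT20, at 6.83 FPKM.

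The output factors Dbp and Tef, PAR bZIP activators of detoxification and metabolic genes, followed the same course. Dbp ran in CryDKO from 12.8 FPKM at ZT3 to 45.8 at ZT9, with a median of 28.1. In WT it was at 0.172 and 0.75 FPKM at ZT4, at 28.7 and 17.1 at ZT8, and at 0.593 to 7.65 from ZT12 to ZT24. Only the 2 WT libraries of ZT8 reached the CryDKO range. The difference was 2.88 ± 0.35 (adjusted p = 1.19e-05). Tef ranged from 19.9 to 29.2 FPKM in CryDKO and from 2.79 to 24.1 in WT, a rise of 1.17 ± 0.19 (adjusted p = 0.000123). Hlf, the third PAR bZIP gene, was 0.70 ± 0.18 higher (adjusted p = 0.00487), or 0.40 without the 4 libraries with pancreatic RNA described below (adjusted p = 0.0422). Bhlhe40, a repressor that competes for E-boxes, was 0.99 ± 0.20 higher (adjusted p = 0.000784). The kinase gene Csnk1d differed by 0.32 ± 0.13 (adjusted p = 0.0449), and this call was lost after correction (0.06, adjusted p = 0.622) and with WT number 1 alone (0.05, adjusted p = 0.668). Csnk1e, a further kinase of PER proteins, ranged in CryDKO from 1.17 to 1.41 FPKM, and in WT from 0.289 to 0.792, with no overlap, and was not tested since its mean was under 1 FPKM.

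The second loop, of REV-ERB repressors and ROR activators acting on Arntl, differed in part. Nr1d1 was at 8.31 to 14.3 FPKM in CryDKO at all hours, and in WT ran from 0.122 at ZT20 to 20.4 at ZT8. It was 1.68 ± 0.20 higher in CryDKO (adjusted p = 9.51e-06), with its WT peak above every CryDKO library. Nr1d2 had medians of 20.6 and 15.6 FPKM and differed by 0.53 ± 0.25 (adjusted p = 0.0927), a difference that passed after correction (0.74, adjusted p = 0.0166) and with WT number 1 alone (0.99, adjusted p = 0.00662). Rora had medians of 5.89 and 4.72 FPKM and differed by 0.19 ± 0.18 (adjusted p = 0.412), and Rorb was at most 0.00542 FPKM.

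The activators did not rise. Arntl (chr7:113207465-113314126) read 7.24, 3.73, 3.84, 3.89, 4.24, 5.97, 6.35 and 7.36 FPKM from ZT3 to ZT24 in CryDKO. In WT it was at 0.416 to 0.892 FPKM at ZT8 and ZT12, and at 7.83 to 12.6 at ZT4, ZT20 and ZT24. CryDKO thus lay between the WT extremes, and the 24-h levels differed by 0.08 ± 0.20 (adjusted p = 0.766). Clock was 0.41 ± 0.14 lower in CryDKO (adjusted p = 0.0271). That call was lost with WT number 1 alone (-0.22, adjusted p = 0.387) and when CryDKO ZT9, ZT12 or ZT21 was left out. Npas2, the paralog of Clock, was listed at 0 in all 8 CryDKO libraries. In WT it reached 1.78 FPKM at ZT24, was at 0.415 to 1.78 at ZT4, ZT20 and ZT24, and at most 0.0362 at the other hours. Its mean was under the minimum of 1 FPKM, so it was not tested. Nfil3, a repressor at the sites of Dbp, had medians of 12.6 and 23.9 FPKM and differed by -0.41 ± 0.24 (adjusted p = 0.168).

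**Figure D1:**
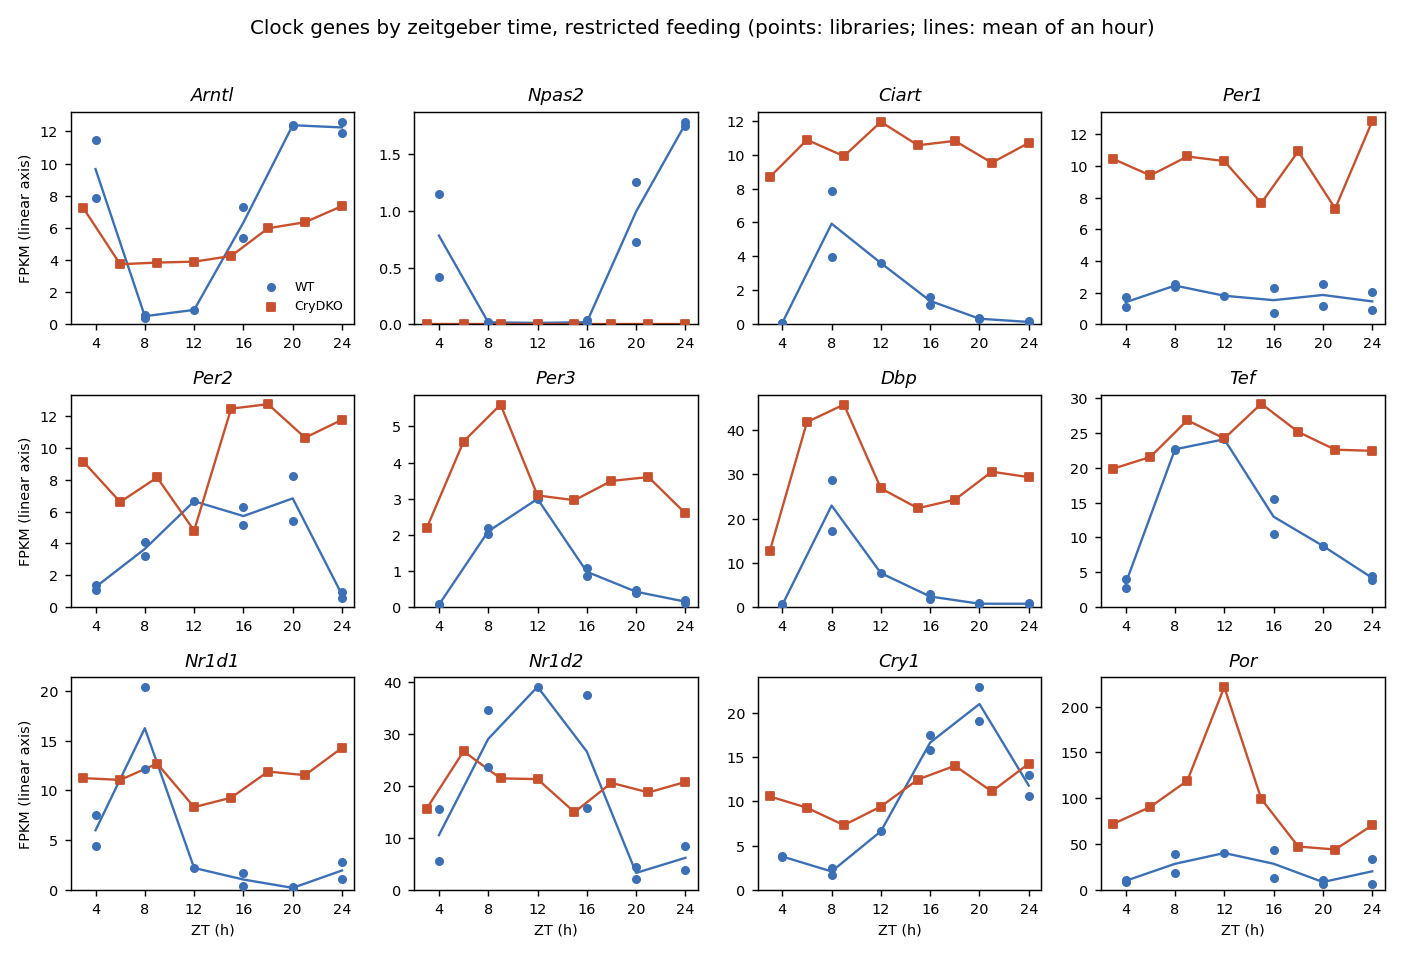
FPKM (linear axis) of 12 clock genes against ZT in h, with blue circles for the 11 WT libraries, red squares for the 8 CryDKO libraries and lines through the mean of each hour. Ciart and Per1 lie above every WT library at all hours in CryDKO, Npas2 is at 0, and Arntl stays between 3.73 and 7.36 FPKM while WT falls to 0.416.

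Downstream of the clock, 11 of 28 output genes rose and 5 fell (median 0.23). After correction 10 rose and 3 fell, and with WT number 1 alone 8 rose and 3 fell. Without the 4 libraries with pancreatic RNA, 9 rose and 2 fell. Por encodes the reductase that supplies electrons to the cytochrome P450 enzymes. It ranged from 43.9 to 221 FPKM in CryDKO, highest at ZT12, and from 6.21 to 43.8 in WT, a rise of 2.21 ± 0.32 (adjusted p = 5.31e-05). Usp2, a deubiquitinase, was 1.64 ± 0.25 higher (adjusted p = 8.70e-05) and Wee1, a kinase that holds back mitosis, 1.27 ± 0.21 higher (adjusted p = 0.000202). Cdkn1a, which encodes the cell cycle inhibitor p21, fell by 1.81 ± 0.41 (adjusted p = 0.00206). Its medians were 1.21 FPKM in CryDKO and 19.1 in WT, and the ranges overlapped.

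Rhythm was tested with the cosine and sine of ZT together, and amplitude is the fitted distance from the 24-h level to the peak in log2 units. In WT 117 genes (1.19%) were rhythmic, in CryDKO 8 (0.0812%), and 8 (0.0812%) differed in rhythm between the groups. At an unadjusted p under 0.05 these counts were 1750, 1130 and 688. On corrected values 236 genes (2.49%) were rhythmic in WT and 252 (2.66%) in CryDKO, with 33 differing (0.348%), so that the CryDKO count was then not the lower one. It was the higher one also with library weights (1549 in WT and 1954 in CryDKO) and without CryDKO ZT6 (100 and 102), and the lower one under the other alternatives run, for example with voom on recovered reads (113 and 8). The counts rested on single libraries as well. In WT they ran from 37 without WT ZT12 number 2 to 342 without WT ZT16 number 1, and in CryDKO from 3 without ZT12 to 102 without ZT6. The difference count ran from 3 without CryDKO ZT15 to 22 without CryDKO ZT6.

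Within the core clock list the groups differed more plainly. By limma, 10 of its 18 measured genes were rhythmic in WT and 0 in CryDKO, and at an unadjusted p under 0.05 the counts were 11 and 1. Limma voom on recovered reads also gave 10 and 0. After correction the counts were 11 and 0, and without the 4 libraries with pancreatic RNA 12 and 0. The amplitude was larger in WT for 16 of 18, with medians of 1.06 and 0.216, and this was so after correction too (16 of 18, medians 1.1 and 0.234). Over all genes tested 57.2% had the larger amplitude in WT, and 43.4% on corrected values. A test of the difference itself was passed by 3 members, Cry1 and Nr1d1 among them, with and without correction. When libraries were scaled to the same sum of FPKM it was passed by 0 members in limma (9 at an unadjusted p under 0.05), and voom gave 4, with Ciart added. Without the libraries with pancreatic RNA it was passed by Cry1 alone, itself a deleted gene. Those 4 libraries were both of WT ZT16 and those of CryDKO ZT9 and ZT24. For rhythm calls, here and below, their pancreatic RNA and the loss of those hours thus cannot be told apart.

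Cry1 had an amplitude of 1.44 and a peak at ZT19.2 in WT, and an amplitude of 0.34 in CryDKO (adjusted p of the difference 0.00808). Its difference kept the call whichever library was left out, and lost it with either WT number alone and with the same sum of FPKM. Cry1 is itself a deleted gene in CryDKO, and the labels do not say which exons it lacks there. Nr1d1 had amplitudes of 1.72 and 0.21 (adjusted p of the difference 0.0432), a call lost on leaving out any 1 of 16 libraries. Arntl had an amplitude of 1.71 with a peak at ZT22.2 in WT (adjusted p = 0.000435, a call lost with WT number 1 alone) and of 0.44 in CryDKO (adjusted p = 0.662), but the difference did not pass (adjusted p = 0.246). For Dbp the amplitudes were 1.85 and 0.26 (adjusted p of the difference 0.578).

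**Figure D2:**
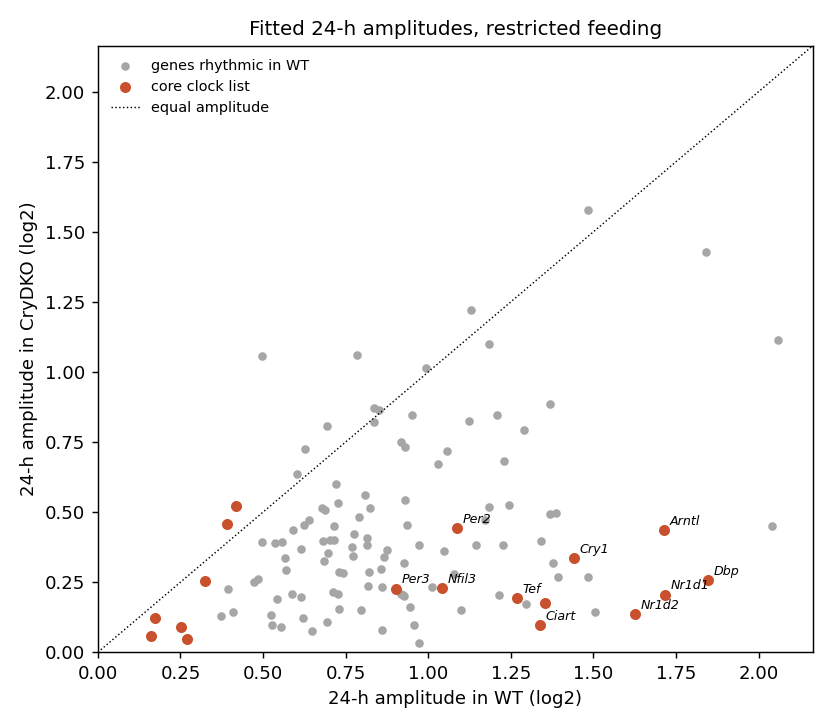
Fitted 24-h amplitude (log2) in CryDKO against that in WT, with grey points for the 117 genes rhythmic in WT, red points for the 18 core clock genes and a dotted line at equal amplitude. For the core clock genes 16 of 18 lie below the line.

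Outside the core clock, 5 further genes passed the test of a rhythm difference, of which 4 are named. Thrsp, a regulator of fat synthesis, had an amplitude of 2.06 with a peak at ZT13.4 in WT and 1.11 at ZT19.9 in CryDKO (adjusted p of the difference 0.0227). Its highest WT value was 1209 FPKM at ZT16 and its highest CryDKO value 665 at ZT24. Inca1, an inhibitor of cyclin-dependent kinase, was rhythmic in both groups, with its peak at ZT6.37 in WT and ZT12.3 in CryDKO (adjusted p of the difference 0.00808). Pcp4l1 read 5.56, 5.74, 24.0, 54.5, 112, 36.5, 35.3 and 10.9 FPKM from ZT3 to ZT24 in CryDKO, and was at 2.13 to 7.81 in WT. It was rhythmic in CryDKO, with an amplitude of 1.86 (adjusted p = 0.00127), and not in WT (adjusted p = 0.254); its difference (adjusted p = 0.0372) was lost on leaving out any 1 of 11 libraries. Mreg, which encodes melanoregulin, peaked at ZT22.5 in WT with an amplitude of 0.77 (adjusted p of the difference 0.0432), a call lost on leaving out any 1 of 12 libraries. Thrsp lost its call on leaving out any 1 of 5. The difference calls of Thrsp, Inca1, Pcp4l1 and Mreg were all lost with either WT number alone and with the same sum of FPKM, and those of Thrsp, Pcp4l1 and Mreg without the libraries with pancreatic RNA. Tymp, thymidine phosphorylase, had amplitudes of 1.37 and 0.89 (adjusted p of the difference 0.0524, and 0.00499 after correction).

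A few metabolic genes were rhythmic in CryDKO, with peaks from ZT12.1 to ZT16.6. Decr2, a peroxisomal reductase of fatty acid breakdown, ran from 11.4 FPKM at ZT3 to 114 at ZT12 in CryDKO, an amplitude of 1.22 (adjusted p = 0.0145), and stayed at 75.1 to 126 in WT. Its 24-h level fell by 1.36 ± 0.16 (adjusted p = 7.85e-06). Cyp2e1, the ethanol-oxidising P450, ran from 1538 FPKM at ZT3 to 8134 at ZT12 (adjusted p = 0.0145), and Acot12, a cytosolic acetyl-CoA hydrolase, from 12.9 to 80.8 (adjusted p = 0.0174). Hspa8, a constitutive heat shock chaperone, ran from 1.05 FPKM at ZT3 to 45.7 at ZT18 in CryDKO (adjusted p = 0.0189) and was at 35.0 to 164 in WT. For none of these 4 did the difference in rhythm between the groups pass (adjusted p = 0.176 for Decr2, 0.711 for Cyp2e1, 0.514 for Acot12 and 0.536 for Hspa8). Leaving out CryDKO ZT12 ended the CryDKO rhythm call of all 4, as did either WT number alone, and leaving out the libraries with pancreatic RNA ended that of Decr2, Cyp2e1 and Acot12. Leaving out ZT15 ended that of Decr2, Acot12 and Hspa8, leaving out ZT24 that of Decr2, and leaving out ZT3 or ZT18 that of Hspa8. Of the genes rhythmic in WT, Chka, a choline kinase, had amplitudes of 1.34 and 0.40 and Cldn1, a tight junction gene, 1.1 and 0.15 (adjusted p of the difference 0.086 and 0.064), and both differences passed after correction (adjusted p = 0.0313 and 0.0177). The WT rhythm calls of both were lost with WT number 1 alone.

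Genes known for higher expression in the liver of 1 sex were counted in a male-biased and a female-biased list. Of 24 measured male-biased genes 0 rose, 14 fell and 10 did not pass (median -1.42). No further rise was found at an unadjusted p under 0.05 or with voom on recovered reads (15 falls each). The list had 14 falling after correction (median -0.85) and 8 with WT number 1 alone (median -1.05). Of 20 listed female-biased genes 7 were measured, of which 5 rose and 0 fell in limma (median 1.44), with 6 and 0 at an unadjusted p under 0.05 and 5 and 0 with voom. After correction 7 rose, and with WT number 1 alone 3 rose. The minimum mean of 1 FPKM was taken over both groups, so a gene near-absent in WT was measured only if high in CryDKO. The rises of the female-biased list and its lack of falls may thus follow in part from that filter. Without CryDKO ZT3, 2 male-biased genes rose and 13 fell. Leaving out CryDKO ZT12 left 3 female-biased genes that rose. Growth hormone pulses are known to set this sex bias in liver through STAT5.

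Moxd1, a monooxygenase-like gene of the male-biased list (chr10:24223517-24302790), was at 25.7 to 85.9 FPKM in WT, with a median of 59.5. In CryDKO it was at 1.88 FPKM at ZT6 and at 0 to 0.227 in the other 7 libraries. The groups lay far apart, and the difference of -5.45 ± 0.19 (adjusted p = 1.73e-12) was among the greatest falls. Ugt2b38, a UDP-glucuronosyltransferase, was at 9.73 to 68.3 FPKM in WT and at most 0.0944 in CryDKO (-4.38 ± 0.27, adjusted p = 3.45e-09). Mup20, a major urinary protein of male mice known as darcin, had medians of 5949 FPKM in WT and 991 in CryDKO, with no overlap (-2.66 ± 0.38, adjusted p = 4.74e-05). Mup1 had medians of 54.2 and 6.21 FPKM (-2.70 ± 0.50, adjusted p = 0.000409). Mup12 had medians of 153.7 FPKM in WT and 25.3 in CryDKO (-2.70 ± 0.47, adjusted p = 0.000263). The Ugt2b and Mup genes have near-identical copies, so their own shares of the reads are uncertain.

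Hsd3b5, a male-biased steroid dehydrogenase, fell by 2.07 ± 0.60 (adjusted p = 0.00981). With WT number 1 alone this was -1.86 (adjusted p = 0.168), and without CryDKO ZT3, its lowest library at 0.621 FPKM, -1.31. Cyp4a12b, a male-biased fatty acid hydroxylase, fell by 2.26 ± 0.38 (adjusted p = 0.000191). Cyp7b1, the oxysterol hydroxylase of the alternative bile acid pathway, fell by 1.5 ± 0.31 (adjusted p = 0.00102), by 0.94 after correction (adjusted p = 0.0172), and with WT number 1 alone differed by -1.19 (adjusted p = 0.0569).

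Among female-biased genes, Cyp2b9 had the greatest difference. In CryDKO it ranged from 28.2 to 192 FPKM (median 82.8), and in WT it had a median of 0.529 with single libraries at 82.4 (ZT8 number 1) and 23.5 (ZT24 number 2). It was 4.59 ± 0.79 higher (adjusted p = 0.000237). Cyp2c69 had medians of 5.30 and 0.525 FPKM (2.13 ± 0.32, adjusted p = 8.17e-05), and Cyp17a1, the steroid 17-hydroxylase and lyase, 22.7 and 7.13 (1.95 ± 0.39, adjusted p = 0.0007). Acot3, a peroxisomal thioesterase, was 1.44 ± 0.49 higher (adjusted p = 0.0218). This call was lost with WT number 1 alone (0.88, adjusted p = 0.278), without CryDKO ZT12 or ZT21, and without the libraries with pancreatic RNA. The Cyp2b genes too have close copies.

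**Figure D3:**
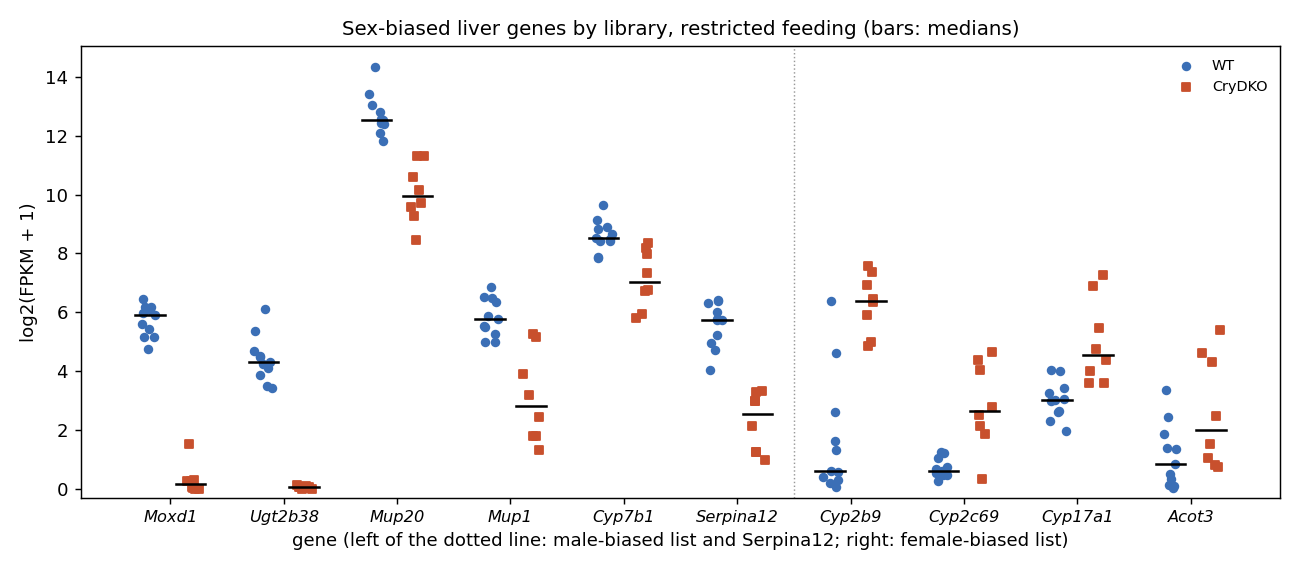
log2(FPKM + 1) of each library for 5 male-biased genes and Serpina12 (left of the dotted line) and 4 female-biased genes (right), with blue circles for WT, red squares for CryDKO and black bars at the medians. Moxd1, Ugt2b38, Mup20 and Serpina12 do not overlap between the groups, and Cyp2b9 overlaps through 1 WT library, at 82.4 FPKM (ZT8 number 1).

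Of 15 genes of the growth hormone and STAT5 list, 7 rose and 2 fell (median 0.43). After correction 3 rose and 2 fell, and with WT number 1 alone 1 rose and 0 fell. Onecut1, a transcription factor of higher level in female liver, was 1.22 ± 0.32 higher (adjusted p = 0.00481). Igfals, which encodes the acid-labile subunit that binds IGF in blood, was 1.4 ± 0.33 higher (adjusted p = 0.0025), and Socs3, a feedback inhibitor of cytokine signalling, 1.42 ± 0.34 (adjusted p = 0.00271). Both calls were lost after correction (Igfals 0.59, adjusted p = 0.0615, and Socs3 0.46, adjusted p = 0.264) and with WT number 1 alone (0.63, adjusted p = 0.171, and 1.08, adjusted p = 0.135). Cish, a direct STAT5 target and feedback inhibitor, was 0.76 ± 0.24 higher (adjusted p = 0.0137), and this call too was lost after correction (0.17, adjusted p = 0.608) and with WT number 1 alone (0.69, adjusted p = 0.0968).

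Genes of cholesterol synthesis were higher in CryDKO in part. Of 24 measured cholesterol genes 9 rose and 0 fell in limma (median 0.32), with 10 and 1 at an unadjusted p under 0.05 and 9 and 0 with voom. The list had 7 rising after correction (median 0.45) and 7 rising and 1 falling with WT number 1 alone (median 0.73). Srebf2, the transcription factor of the pathway, did not overlap between the groups and was 1.53 ± 0.20 higher (adjusted p = 2.42e-05), or 0.68 after correction (adjusted p = 0.00232). Mvk, mevalonate kinase, was 1.54 ± 0.28 higher (adjusted p = 0.000391), or 0.86 after correction (adjusted p = 0.0219). Mvd, mevalonate decarboxylase, was 1.74 ± 0.45 higher (adjusted p = 0.00463), a call lost after correction (1.04, adjusted p = 0.0603) and with WT number 1 alone (1.39, adjusted p = 0.103).

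For fatty acid synthesis, 7 of 16 rose and 1 fell (median 0.35). After correction 3 rose and 3 fell (median 0.04), with WT number 1 alone 3 rose and 1 fell, and without CryDKO ZT6 or without the libraries with pancreatic RNA 4 rose. Of all genes, 19.2% rose and 20.7% fell after correction. The corrected counts of this list were near those shares and show no rise of the list as a whole. Fasn, fatty acid synthase, read 26.8, 18.1, 67.6, 9.71, 46.8, 42.9, 50.2 and 75.1 FPKM from ZT3 to ZT24 in CryDKO and was at 1.22 to 15.4 in WT. All CryDKO libraries but ZT12 lay above WT. It was 2.54 ± 0.41 higher (adjusted p = 0.000137), or 1.44 after correction (adjusted p = 0.00396). Srebf1, the factor that drives it, was 1.89 ± 0.35 higher (adjusted p = 0.000464), 0.83 after correction (adjusted p = 0.0327) and 1.19 with WT number 1 alone (adjusted p = 0.0287). Fads2, a desaturase, was 0.93 ± 0.28 higher (adjusted p = 0.011) and differed by 0.58 with WT number 1 alone (adjusted p = 0.218). Me1, the malic enzyme that supplies NADPH, went the other way: it ranged from 1.3 to 3.23 FPKM in CryDKO and from 3.31 to 19.6 in WT (-1.84 ± 0.24, adjusted p = 1.93e-05).

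Of 25 genes of fatty acid oxidation and ketogenesis 3 rose and 4 fell (median 0.15). After correction 4 rose and 3 fell (median 0.04), with WT number 1 alone 2 rose and 2 fell (median -0.15), and with WT number 2 alone 8 rose and 4 fell. With all 19 libraries those that rose were Cyp4a14, Cyp4a10 and Acot3. Cyp4a14, a fatty acid omega-hydroxylase and a textbook target of PPAR alpha, ranged from 35.0 to 883 FPKM in CryDKO, highest at ZT12, and from 0.835 to 162 in WT (4.12 ± 0.86, adjusted p = 0.00113). Cyp4a10, its neighbour, had medians of 275 and 22.4 FPKM (3.01 ± 0.59, adjusted p = 0.000624). Acadm, the medium-chain dehydrogenase of mitochondrial oxidation, fell by 0.70 ± 0.14 (adjusted p = 0.000651).

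**Figure D4:**
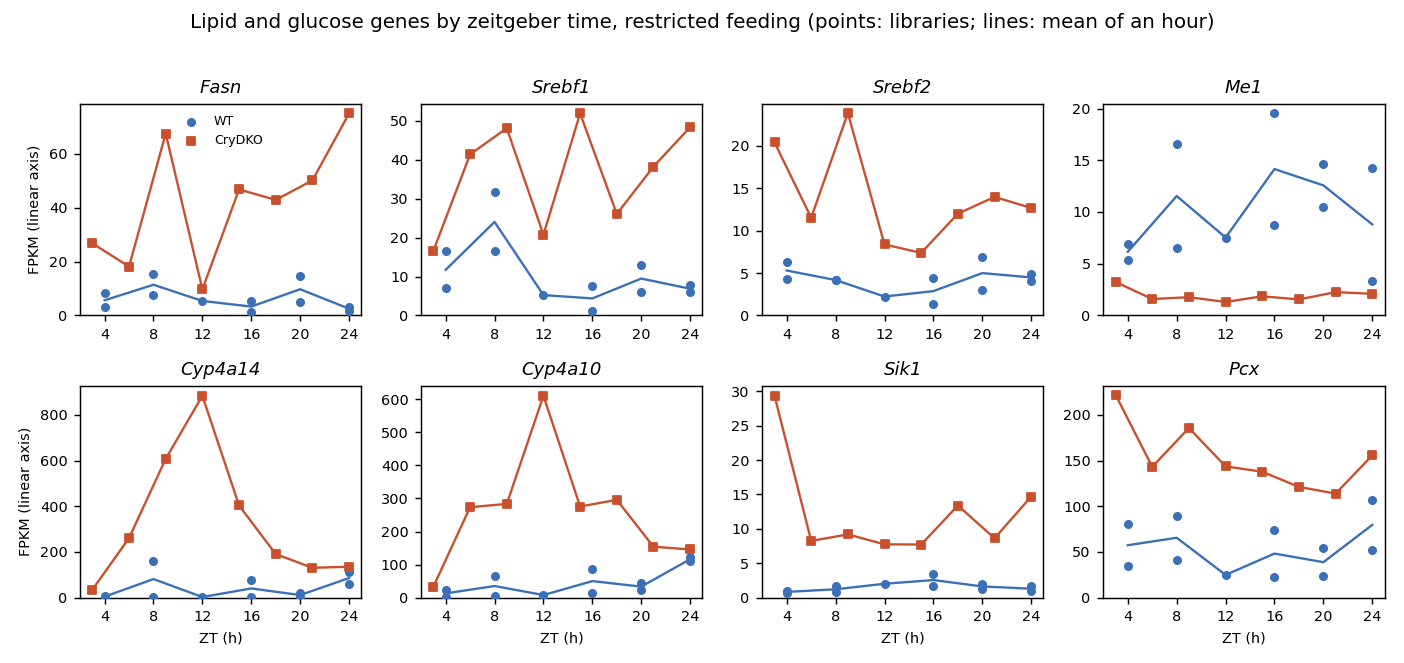
FPKM (linear axis) of 8 lipid and glucose genes against ZT in h, with blue circles for the 11 WT libraries, red squares for the 8 CryDKO libraries and lines through the mean of each hour. Srebf2, Me1, Sik1 and Pcx do not overlap between the groups, and Cyp4a14 and Cyp4a10 are highest at ZT12 in CryDKO, at 883 and 611 FPKM.

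Of 12 lipid droplet genes 3 rose and 1 fell (median 0.34), while with WT number 1 alone 2 rose and 3 fell (median -0.08). Fitm1, which promotes droplet formation, had medians of 4.0 and 14.2 FPKM with no overlap (-1.82 ± 0.25, adjusted p = 3.17e-05). Apoa4, an apolipoprotein of fat export, was 2.09 ± 0.43 higher (adjusted p = 0.00107), and 1.28 with WT number 1 alone (adjusted p = 0.0419). Dgat2, the last enzyme of triglyceride synthesis, was 1.01 ± 0.16 higher (adjusted p = 0.000132), 0.42 after correction (adjusted p = 0.00246) and 0.60 with WT number 1 alone (adjusted p = 0.00241). Pnpla2, which encodes adipose triglyceride lipase, was 1.26 ± 0.27 higher (adjusted p = 0.00114), 0.65 after correction (adjusted p = 0.00499), and differed by 0.65 with WT number 1 alone (adjusted p = 0.07).

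Of 18 genes of bile acid synthesis and export 2 rose and 4 fell, against 0 and 1 with WT number 1 alone. Cyp7a1, which limits the rate of bile acid production, did not pass (-0.55 ± 0.55, adjusted p = 0.416). It read 0.345 FPKM at ZT3 and 31.1 to 86.5 in the other CryDKO libraries. Nr0b2, which encodes the repressor SHP, was 1.35 ± 0.36 higher (adjusted p = 0.00572), with 0.88 after correction (adjusted p = 0.00944) and 0.68 with WT number 1 alone (adjusted p = 0.207). Nr1h4, the bile acid receptor FXR, fell by 0.62 ± 0.12 (adjusted p = 0.000655), a call lost after correction (-0.24, adjusted p = 0.0532). Slco1b2, a bile acid and drug importer, fell by 0.77 ± 0.17 (adjusted p = 0.00184). After correction the value was -0.34 (adjusted p = 0.00754), and with WT number 1 alone -0.33 (adjusted p = 0.0582).

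Of 17 glucose and glycogen genes 3 rose and 2 fell, and without CryDKO ZT3 5 rose and 1 fell. Sik1, a kinase induced by cAMP signalling that restrains glucose production, ranged from 7.72 to 29.4 FPKM in CryDKO and from 0.734 to 3.42 in WT. The groups did not overlap, the highest library was CryDKO ZT3, and the difference was 2.28 ± 0.18 (adjusted p = 8.85e-08). Pcx, pyruvate carboxylase, was 1.65 ± 0.27 higher with no overlap (adjusted p = 0.00016), 0.91 after correction (adjusted p = 0.000358) and 0.92 with WT number 1 alone (adjusted p = 0.00338). Ppp1r3c, a subunit that targets a phosphatase to glycogen, fell by 0.94 ± 0.19 (adjusted p = 0.000678), or by 0.58 after correction (adjusted p = 0.0198). G6pc, the catalytic subunit of glucose-6-phosphatase, fell by 0.88 ± 0.30 (adjusted p = 0.0223). That call was lost after correction (-0.56, adjusted p = 0.172), with WT number 1 alone (-1.17, adjusted p = 0.0738) and without CryDKO ZT3, ZT9 or ZT18. Of 15 glucocorticoid response genes 3 rose, Per1 among them, and 2 fell, against 2 and 0 with WT number 1 alone. Sds, a serine-degrading enzyme, was 1.41 ± 0.34 higher (adjusted p = 0.0029), and 0.76 with WT number 1 alone (adjusted p = 0.139). Fkbp5, a chaperone of the glucocorticoid receptor and its textbook target, was 0.89 ± 0.30 higher (adjusted p = 0.021), a call lost after correction (0.63, adjusted p = 0.102), with WT number 1 alone (0.78, adjusted p = 0.214) and without CryDKO ZT3 or ZT12. Tsc22d3, which encodes GILZ, a further target of the receptor, fell by 0.79 ± 0.24 (adjusted p = 0.0132), and with WT number 1 alone differed by -0.80 (adjusted p = 0.0643).

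Of 20 xenobiotic metabolism genes 6 rose and 3 fell, after correction 10 rose and 1 fell, and with WT number 1 alone 4 rose and 2 fell. Cyp3a11, the main drug-oxidising P450 of the family, had medians of 411 and 100 FPKM and was 2.10 ± 0.29 higher (adjusted p = 3.51e-05). Cyp2c54 was 1.09 ± 0.21 higher (adjusted p = 0.000619), or 1.70 after correction (adjusted p = 1.23e-05). Ugt1a9, a glucuronosyltransferase outside the list, ranged from 26.8 to 75.2 FPKM in CryDKO and from 2.51 to 11.2 in WT, with no overlap (2.89 ± 0.20, adjusted p = 1.60e-08). Cyp2a5, the coumarin hydroxylase, went the other way, with medians of 8.85 and 84.1 FPKM (-3.34 ± 0.28, adjusted p = 2.29e-07). The Ugt1a genes share exons and the Cyp2a genes have close copies, so both values are uncertain. Cyp2e1 fell by 0.60 ± 0.12 (adjusted p = 0.000894), a call lost after correction (-0.26, adjusted p = 0.0961).

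**Figure D5:**
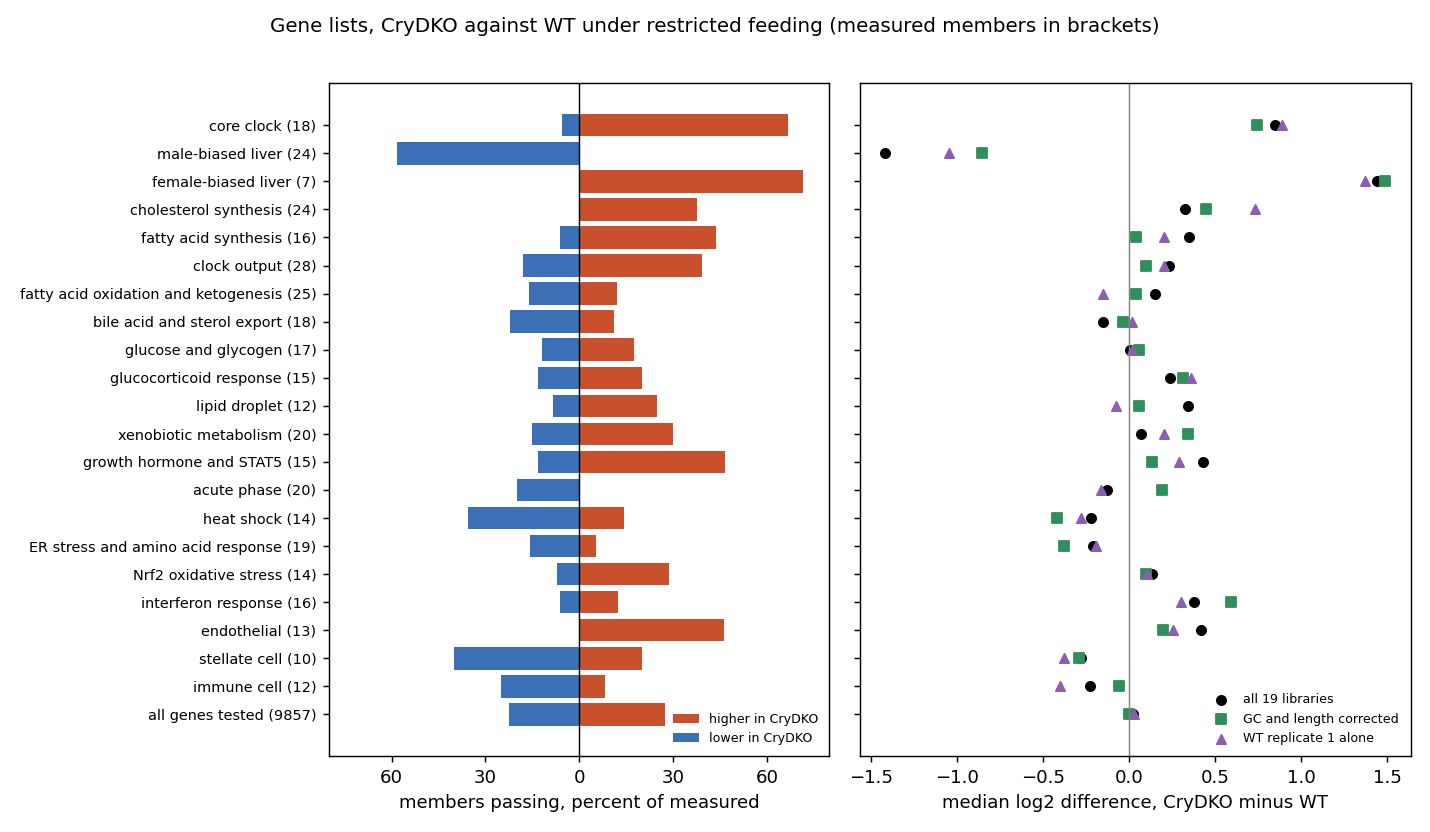
Left, the percent of measured members (number in brackets) of the gene lists and of all genes tested that passed as higher (red) or lower (blue) in CryDKO; right, the median log2 difference with all 19 libraries (black circles), after GC and length correction (green squares) and with WT replicate 1 alone (purple triangles). Core clock and female-biased genes lie to the right and male-biased genes to the left in all 3, while all genes tested lie at 0.02 with all 19 libraries. The minimum mean over both groups admits female-biased genes near-absent in WT only if they are high in CryDKO.

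Stress and immune genes gave mixed counts. Of 14 heat shock genes 2 rose and 5 fell, and after correction 0 rose and 6 fell. Hspa8 had medians of 10.6 FPKM in CryDKO and 46.5 in WT (-2.46 ± 0.27, adjusted p = 5.23e-06), and Hspe1, a mitochondrial co-chaperone, 23.3 and 55.3 (-1.33 ± 0.26, adjusted p = 0.000621). Dnaja1, a co-chaperone of HSP70, fell by 0.88 ± 0.18 (adjusted p = 0.000737), and by 0.52 with WT number 1 alone (adjusted p = 0.0373). Hsf1, the transcription factor of the heat shock response, was 0.87 ± 0.18 higher (adjusted p = 0.00124), a call lost after correction (0.05, adjusted p = 0.723), and 0.41 with WT number 1 alone (adjusted p = 0.0307). Of 19 genes of the ER stress and amino acid response 1 rose and 3 fell, against 1 and 5 after correction and 0 and 2 with WT number 1 alone. Asns, asparagine synthetase, fell by 1.20 ± 0.19 (adjusted p = 0.000101) and Herpud1, an ER degradation gene, by 0.66 ± 0.18 (adjusted p = 0.00683). Dnajb9, an ER co-chaperone, fell by 0.93 ± 0.31 (adjusted p = 0.0183), a call lost after correction (-0.39, adjusted p = 0.211), with WT number 1 alone (-0.49, adjusted p = 0.282) and without CryDKO ZT21. Atf5, a transcription factor of the stress response, was 0.90 ± 0.21 higher (adjusted p = 0.00279), but -0.09 after correction (adjusted p = 0.615) and 0.45 with WT number 1 alone (adjusted p = 0.178). Of 14 Nrf2 genes 4 rose and 1 fell, against 2 and 1 with WT number 1 alone. Keap1, which marks NRF2 for degradation, had a CryDKO range of 8.51 to 13.2 FPKM and a WT range of 2.86 to 8.38, with no overlap (0.94 ± 0.14, adjusted p = 5.1e-05). After correction its difference was -0.06 (adjusted p = 0.558). Gsr, glutathione reductase, was 0.33 ± 0.09 higher (adjusted p = 0.00806) and 0.50 after correction (adjusted p = 0.00101), and Srxn1, sulfiredoxin, fell by 0.46 ± 0.14 (adjusted p = 0.0114), or by 0.81 after correction (adjusted p = 0.0012). G6pdx, the first enzyme of the pentose phosphate pathway, was 0.30 ± 0.11 higher (adjusted p = 0.0318), a call lost with WT number 1 alone (0.14, adjusted p = 0.455) and on leaving out any 1 of 7 libraries. Of 8 measured cell cycle genes 3 rose and 2 fell, against 1 and 2 after correction and with WT number 1 alone. Pcna, the replication clamp, fell by 0.94 ± 0.13 with no overlap (adjusted p = 3.43e-05), or by 0.39 after correction (adjusted p = 0.0012). Gadd45a, a growth arrest and DNA damage gene, was 0.89 ± 0.21 higher (adjusted p = 0.0025), a call lost after correction (0.42, adjusted p = 0.162) and with WT number 1 alone (0.79, adjusted p = 0.0548).

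Of 20 acute phase genes 0 rose and 4 fell in limma (1 and 6 at an unadjusted p under 0.05, and 0 and 5 with voom), 9 fell without CryDKO ZT3, 2 fell after correction and 1 with WT number 1 alone. The list's median was -0.13, and 0.19 after correction. Orm3 was at 25.1 FPKM in that library and at 0.289 to 3.48 in the others, and in WT at 5.97 to 28.0 (-2.16 ± 0.41, adjusted p = 0.000557). Saa1, serum amyloid A, had medians of 130 and 2444 FPKM, with CryDKO ZT3 at 41910 (-2.62 ± 0.89, adjusted p = 0.0217). Its call was lost with WT number 1 alone (adjusted p = 0.182), without CryDKO ZT21 and without the libraries with pancreatic RNA. Orm1, a further orosomucoid of blood, had medians of 714 and 2240 FPKM, with CryDKO ZT3 at 13500 (-1.22 ± 0.39, adjusted p = 0.0155), a call lost after correction (-0.84, adjusted p = 0.0809) and with WT number 1 alone (-1.08, adjusted p = 0.181). Hamp, the iron hormone hepcidin, fell by 1.22 ± 0.49 (adjusted p = 0.0498), a call lost after correction (-0.97, adjusted p = 0.119), with WT number 1 alone (-1.20, adjusted p = 0.19) and on leaving out any 1 of 14 libraries. Of 16 interferon response genes 2 rose and 1 fell, 11 rose without CryDKO ZT3, and 6 rose after correction. Oas1a, an antiviral sensor, was 1.49 ± 0.28 higher (adjusted p = 0.000548), and Gbp2, a guanylate-binding protein gene, fell by 0.64 ± 0.12 (adjusted p = 0.00059), or by 0.33 after correction (adjusted p = 0.0241). Ifi44, an interferon-induced gene, was 0.88 ± 0.31 higher (adjusted p = 0.0252) and 1.16 after correction (adjusted p = 0.00899), a call lost with WT number 1 alone (1.01, adjusted p = 0.138) and without CryDKO ZT6 or ZT21.

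Markers of other cells moved with genotype in part. In bulk tissue, fewer cells of a type and less RNA per cell cannot be told apart, and the part of cell makeup in the results above was not tested. Of 13 endothelial markers 6 rose and 0 fell, in limma at adjusted and unadjusted p and with voom. After correction 7 rose and 1 fell, and with WT number 1 alone 3 rose and 0 fell. The sum of the markers was 88.4 to 137 FPKM in CryDKO, against 66.4 to 111 in WT. Eng was 1.4 ± 0.21 higher with no overlap (adjusted p = 8.83e-05), with 0.68 after correction (adjusted p = 0.000279) and 0.81 with WT number 1 alone (adjusted p = 0.000647). Stab1 was 1.08 ± 0.16 higher (adjusted p = 7.96e-05), 0.20 after correction (adjusted p = 0.0492) and 0.68 with WT number 1 alone (adjusted p = 0.00383). Stab2 was 0.87 ± 0.18 higher (adjusted p = 0.00107) and 0.54 after correction. Cdh5 was 0.78 ± 0.16 higher (adjusted p = 0.00122) and 0.53 with WT number 1 alone (adjusted p = 0.0595). Of 12 immune markers 1 rose and 3 fell, after correction and with WT number 1 alone 0 rose and 4 fell, and their sums overlapped (253 to 383 and 209 to 622 FPKM). H2-Aa, an MHC class II gene, fell by 1.21 ± 0.20 (adjusted p = 0.000152) and Lyz2, lysozyme, by 0.80 ± 0.21 (adjusted p = 0.00445), or by 0.41 after correction (adjusted p = 0.019) and by 0.51 without the libraries with pancreatic RNA. H2-Ab1, its class II partner, fell by 0.72 ± 0.25 (adjusted p = 0.0268), or by 1.3 after correction (adjusted p = 4.94e-05) and by 1.17 with WT number 1 alone (adjusted p = 0.0039), a call lost without CryDKO ZT3, ZT12 or ZT18 or WT ZT16 number 2. The H2-Ab1 call was also lost with WT number 2 alone. Csf1r, the macrophage growth factor receptor, was 0.50 ± 0.18 higher (adjusted p = 0.0273), a call lost after correction (0.05, adjusted p = 0.788), with WT number 1 alone (0.11, adjusted p = 0.592) and on leaving out any 1 of 5 libraries.

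The hepatocyte markers themselves gave 3 rises and 2 falls of 12 (median 0.14), and 0 and 2 with WT number 1 alone (median -0.19). Serpina1c, an antitrypsin with near-identical copies, fell by 0.55 ± 0.15 (adjusted p = 0.0071), a call lost with WT number 2 alone. Cps1, the first enzyme of the urea cycle, was 0.48 ± 0.18 higher (adjusted p = 0.0402), a call lost with WT number 1 alone (0.69, adjusted p = 0.0536) and on leaving out any 1 of 12 libraries. Hnf4a, a master transcription factor of hepatocytes, was 0.43 ± 0.16 higher (adjusted p = 0.0356), a call lost after correction (0.03, adjusted p = 0.896), with WT number 1 alone (0.34, adjusted p = 0.303) and on leaving out any 1 of 9 libraries. The Y-linked Kdm5d, a histone demethylase, fell by 0.28 ± 0.11 (adjusted p = 0.0342), a call lost with WT number 1 alone (-0.10, adjusted p = 0.54) and on leaving out any 1 of 10 libraries. Eif2s3y, also Y-linked, differed by -0.71 (adjusted p = 0.00102), a call that no left-out library ended. Its difference was -0.22 after correction (adjusted p = 0.0274) and -0.35 with WT number 1 alone (adjusted p = 0.033).

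Cd207, the Langerhans cell lectin langerin, was at 4.57 to 27.8 FPKM in WT and at 0.175 to 0.948 in CryDKO, with no overlap (-3.11 ± 0.22, adjusted p = 1.99e-08). Of 10 stellate cell markers 2 rose and 4 fell, against 0 and 1 after correction and 1 and 2 with WT number 1 alone, with sums of 59.2 to 199 FPKM in CryDKO, against 184 to 361 in WT. Lum and Dcn, proteoglycans of the matrix, fell by 0.95 ± 0.20 (adjusted p = 0.00128) and 0.61 ± 0.18 (adjusted p = 0.00867). Rgs5, a pericyte gene, fell by 0.81 ± 0.28 (adjusted p = 0.0222), and its call was lost without CryDKO ZT21. Tgfb1, the fibrogenic growth factor, was 0.85 ± 0.14 higher (adjusted p = 0.000188). All 4 calls were lost after correction (-0.40, -0.31, -0.46 and 0.22, adjusted p = 0.0862, 0.153, 0.146 and 0.101), and those of Lum, Dcn and Rgs5 with WT number 1 alone (adjusted p = 0.0603, 0.203 and 0.355). Of 3 measured bile duct markers 1 rose and 1 fell, the latter being Spp1, osteopontin (-1.16 ± 0.23, adjusted p = 0.000768, and -0.65 after correction). Both measured adipocyte markers fell. Cfd, adipsin, differed by -0.89 ± 0.33 (adjusted p = 0.0355), a call lost on leaving out any 1 of 9 libraries. It differed by -1.46 after correction (adjusted p = 0.0022) and by -1.46 with WT number 1 alone (adjusted p = 5.87e-05), while with WT number 2 alone the call was lost. Fabp4, a fatty acid-binding protein, fell by 0.63 ± 0.24 (adjusted p = 0.0408), a call lost after correction (-0.29, adjusted p = 0.39), with WT number 1 alone (-0.82, adjusted p = 0.0649) and on leaving out any 1 of 12 libraries. In this list the defining Adipoq, Lep and Plin1 were under 1 FPKM on average. Of 5 measured erythroid genes 3 rose and 2 fell, with sums of 260 to 3483 FPKM in CryDKO, against 131 to 890 in WT. Hbb-bt, a beta-globin, was 2.45 ± 0.47 higher (adjusted p = 0.000575). Hbb-bs, its near-identical copy, was 1.74 ± 0.49 higher (adjusted p = 0.00804), a call lost with WT number 1 alone (1.06, adjusted p = 0.192). Hba-a1 was 4.71 ± 0.64 higher and Hba-a2 2.78 ± 0.55 lower (adjusted p = 2.91e-05 and 0.000718), and with WT number 1 alone Hba-a2 differed by -4.21 (adjusted p = 5.87e-05). These alpha-globin genes are near-identical, so reads could be divided between them differently in each group.

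Of 13 pancreas markers 0 passed in limma, at an unadjusted p under 0.05 too, and 0 with voom. Clps, a pancreatic colipase, was at 192 FPKM in CryDKO ZT9 and 10.3 in CryDKO ZT24, at 205 in WT ZT16 number 1 and 16.8 in WT ZT16 number 2, and under 1 in the other 15 libraries. Without these 4 libraries, a choice made after seeing the data, 11 of 18 core clock genes rose and 0 fell, 12 of 24 male-biased genes fell, 3 of 7 female-biased genes rose, and 8 of 24 cholesterol genes rose. Of 131 named genes that passed, 113 kept their call. The calls lost were those of Acot3, Cfd, Clock, Cps1, Csf1r, Csnk1d, Dnajb9, Fabp4, G6pdx, H2-Ab1, Hamp, Hnf4a, Ifi44, Kdm5d, Orm1, Rgs5, Saa1 and Srxn1.

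The list of greatest differences held several genes outside the lists. Serpina12, which encodes the adipokine vaspin, ranged from 0.976 to 9.08 FPKM in CryDKO and from 15.6 to 83.7 in WT, with no overlap (-3.25 ± 0.32, adjusted p = 1.24e-06). Nnmt, nicotinamide N-methyltransferase, had medians of 4.70 and 177 FPKM, with CryDKO ZT3 and ZT24 at 281 and 94.4 (-4.05 ± 0.53, adjusted p = 2.11e-05). Fam25c had medians of 1.56 and 38.3 FPKM (-3.78 ± 0.40, adjusted p = 2.79e-06). Igfbp2, an IGF-binding protein, was 2.78 ± 0.50 higher (adjusted p = 0.00033), and Cldn3, a tight junction gene, 3.13 ± 0.43 with no overlap (adjusted p = 3.75e-05), with 2.01 after correction and 2.02 with WT number 1 alone. Also, 4 pseudogenes were near-absent in 1 genotype. Rps13-ps1 was at most 0.112 FPKM in CryDKO and 8.98 to 169 in WT, Rps15a-ps8 at most 0.422 and 6.00 to 62.9, Gtpbp4-ps1 at most 0.717 and 2.61 to 39.6, and Eif3s6-ps2 8.10 to 15.5 in CryDKO and at most 0.855 in WT. Such copies share reads with their parent genes and are uncertain. Over all genes, groups did not overlap with CryDKO higher for 443 (4.49%) and with CryDKO lower for 328 (3.33%).

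The genotype difference depended on feeding for many genes. An interaction contrast in a fit of the restricted and ad libitum libraries of both genotypes passed for 3812 genes (38.7%), and for 1051 (11.1%) on corrected values. Of the core clock genes 4 of 18 passed, and 0 after correction. Per1 was 2.01 higher in CryDKO under restricted feeding and 0.66 ± 0.16 under ad libitum feeding (adjusted p of the interaction 4.74e-05, and 0.397 after correction). For Ciart the differences were 2.34 and 2.03 ± 0.21 (adjusted p of the interaction 0.45), and for Dbp 2.88 and 2.43 ± 0.37 (adjusted p of the interaction 0.522). Of the 24 cholesterol genes 8 passed, and 1 after correction. Srebf2 differed by 0.02 ± 0.20 under ad libitum feeding against 1.53 under restricted (adjusted p of the interaction 0.0002, and 0.0359 after correction), and Fasn by 0.18 ± 0.43 against 2.54 (0.00313, and 0.0794 after correction). Of the 24 male-biased genes 7 passed and 0 after correction. Moxd1 differed by -3.05 ± 0.62 under ad libitum feeding against -5.45 (adjusted p of the interaction 0.0327, and 0.0657 after correction), and Cyp7b1 by 0.41 ± 0.38 against -1.5 (0.00634, and 0.0564 after correction).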

How the data were processed

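RNA of frozen livers (RNeasy Mini kit) was turned into TruSeq stranded mRNA libraries, per the labels' protocols. FPKM of 45808 gene rows were deposited by the authors. The submitters' processing notes name STAR, featureCounts, DESeq2 and GRCm38, all without a version. Whether reads were counted by strand is not known from the sources used here, so a gene and its antisense partner cannot be told apart. FPKM are not counts, so no count test gives the main results. Low values (up to 20 reads) fell on whole multiples of 1 read for 84.7 to 87.3% of values at a tolerance of 0.1 reads, which gave each library's depth. Within each group of the 19 libraries no pair was identical, and the chi-square per degree of freedom between 2 libraries was at least 30.7. Most of these pairs also differed in hour.

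Genes whose mean reached 1 FPKM over the 19 libraries were tested with limma 3.58.1 in R 4.3.3 on log2(FPKM + 1), with 13 residual degrees of freedom. Symbols turned into dates (23) and repeated symbols (4) were left unnamed or out. Positions, exon length and GC content came from the GENCODE annotation of GRCm38, matched by symbol for 41828 rows. Correction removed, per library, a spline trend of log2 deviations on GC content and log length, for 9482 genes. Tests were checked on simulated data. The named genes begin with the core clock list. The greatest rises and falls were those passing with and without correction at a mean of at least 5 FPKM. Further named genes were up to 4 passing members of each of 28 lists and the genes with the smallest p for rhythm. Genes with the smallest p for dependence on feeding were taken only if they passed with and without correction. Other list members may be named with their values (Clps, Cyp4a12b, Cyp7a1, Hsd3b5, Mup20 and Srebf2 were named outside the rule, after their values were seen). Some genes the rule selected are not reported here, and the counts of named genes leave them out. Members, lists and tests were chosen with earlier results of these data known. Alternatives were another pseudocount, filters, scalings, weights, a mean-variance trend, all libraries in the fit, 1 WT number at a time, a replicate block, time terms, limma voom on recovered reads, and each library left out. Leaving out the libraries with Clps was chosen after seeing the data.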

Additional observations from a re-analysis of the deposited data

Results flagged for a closer look

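In the 8 CryDKO libraries, each named gene was examined for 1 library whose gap to its nearest neighbour exceeded Dixon's 95% limit for 8 values, as a share of the group's range on the log2 scale, a limit that chance passes in about 1 group in 20. This was met by 22 of 140 genes (15.7%), and in 15 of them the library was CryDKO ZT3. Dixon's limit is for values without a time course, and each CryDKO library was the only one of its hour. A library apart thus cannot be told from a peak or trough at its hour. In WT, Wee1, Usp2 and Hlf were lowest at ZT4, and Cyp7a1, Igfals, Hsd3b5 and Cps1 at other hours. The gap shares at ZT3 were 0.759 for Cyp7a1 (0.345 FPKM, lowest, others 31.1 to 86.5), 0.692 for Wee1 (1.52, lowest, others 5.76 to 9.48), 0.695 for Igfals (11.5, lowest), 0.689 for Hsd3b5 (0.621, lowest), 0.635 for Cps1 (464, lowest, others 847 to 1200), 0.557 for Usp2 (6.32, lowest) and 0.532 for Hlf (6.89, lowest). ZT3 was highest for Spp1 (0.715, 91.7 FPKM against 18.7 to 29.7), Socs3 (0.691, 52.6 against 1.78 to 5.94), Orm3 (0.585), Fabp4 (0.585, 11.2 against 1.75 to 4.11), Orm1 (0.577, 13500 against 371 to 1700), Fam25c (0.574), Sik1 (0.529) and Rps13-ps1 (1, at 0.112 FPKM with the others at 0). The remaining genes were Moxd1, highest at ZT6 (0.807), Nr0b2, lowest at ZT6 (0.639), Dcn, lowest at ZT6 (0.786), Nr1h4, highest at ZT9 (0.579), Clps, highest at ZT9 (0.54), and Eng and Pcna, highest at ZT24 (0.642 and 0.665). Without CryDKO ZT3, 124 of the 131 named genes that passed kept their call.

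The CryDKO minus WT difference depended on feeding for 3812 genes. The 8 genes below had the smallest p among genes of at least 5 FPKM that also passed on corrected values. Passing there was thus a condition of their choice. On uncorrected values the CryDKO minus WT difference of these genes was opposite in sign between the schedules. The ad libitum differences were not tested on their own. On the log2 scale, restricted minus ad libitum, the difference was 2.75 for Apba3, an adaptor protein gene, 2.91 for Rnaseh2c, a subunit of ribonuclease H2, 2.27 for the ubiquitin ligase gene Rnf126, 2.00 for the casein kinase gene Csnk1g2, 2.13 for the Mediator subunit gene Med25 and 3.82 for the ribosomal protein gene Rplp1. It was -3.98 for the mitochondrial gene mt-Nd6 and -4.57 for the mitochondrial tRNA gene mt-Tp. On corrected values these were 1.46 for Apba3, 1.78 for Rnaseh2c, 0.52 for Rnf126, 0.92 for Csnk1g2, 0.95 for Med25, 2.86 for Rplp1, -3.04 for mt-Nd6 and -3.88 for mt-Tp. In restricted feeding alone, mt-Nd6 differed by -1.15 (adjusted p = 0.000729). That call was lost on corrected values (-0.32, adjusted p = 0.152) and with WT number 1 alone (-0.59, adjusted p = 0.0539). Both mt-Nd6 and mt-Tp lie on the strand opposite to most mitochondrial genes. The share of mitochondrial FPKM was 4.29 to 8.81% in CryDKO and 4.26 to 13.9% in WT, and its part in these values was not tested.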

How the results depend on the processing

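The number of genes with a level difference (4928) was 4316 to 5246 with 1 library left out, 2676 with a minimum of 5 FPKM, 2777 with WT number 1 alone and within 1.5 times under 14 further alternatives (6753 at most, with library weights). Of 131 named genes that passed, 113 kept the call whichever library was left out, 105 after correction, 94 with WT number 1 alone and 82 under every alternative other than left-out libraries. The greatest rises and falls among them had been chosen to pass after correction, so they could not be lost there. After correction Atf5 (-0.0897) and Keap1 (-0.0611) reversed without passing. No paired analysis was possible because every CryDKO library carries number 1; a replicate block for the WT number alone gave 5417 level differences, 817 rhythmic genes in WT, 63 in CryDKO and 22 rhythm differences. Rhythm counts were unstable, and the cause was not tested. Rhythm differences (8) numbered 3 to 22 with 1 library left out, 5 with no filter, 0 with the same sum of FPKM (858 at an unadjusted p under 0.05), 33 after correction, 1003 with weights, 344 with all libraries in the fit and 1 with either WT number alone. Rhythmic genes in WT (117) numbered 37 to 342, 73 with no filter, 63 with the same sum, 236 after correction, 1549 with weights, 1953 with all libraries, 10 with WT number 1, 68 with 12-h terms and 682 without Clps libraries. Those in CryDKO (8) numbered 3 to 102, 56 with no filter, 13 at 5 FPKM, 17 with median-of-ratios scaling, 252 after correction, 1954 with weights, 13 with a trend, 750 with all libraries, 3 and 4 with WT number 1 or 2, and 5 with 12-h terms. Genes dependent on feeding (3812) numbered 3371 to 4637, 2110 at 5 FPKM, 1051 after correction, 6484 with weights and 2048 with WT number 1. Leaving out libraries with a pancreas sum of at least 10 FPKM was not run, since all 19 met it. Depth and the number of libraries, 1 per hour in CryDKO, limit the precision of the rhythm tests.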

Other observations

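Genes near the deleted Cry1 gene were counted, a view chosen after seeing the data. Of 91 tested genes within 5 Mb of Cry1 on chromosome 10, 51.6% rose and 11% fell, against 27.7% and 22.4% of the 9482 genes with a position. The groups did not overlap for 16.5% of them, against 7.79%. Within 10 Mb of Cry1, 52.7% of 167 genes rose, 10.2% fell and 13.8% did not overlap. Within 5 Mb of Cry2 on chromosome 2 there were 37 tested genes, of which 35.1% rose, 16.2% fell and 13.5% did not overlap. Within 10 Mb of Cry2, 27.9% of 61 genes rose, 19.7% fell and 11.5% did not overlap. Genes with a difference in both the original and the corrected values made up 30.8% around Cry1, 27.0% around Cry2 and 26% overall.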
